A study of Mus musculus with 12 samples.

Results

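The genes described here carry mouse symbols that begin with Usp or Klhl followed by a digit and lie on chromosomes 1 to 19. They number 86 of the 46710 genes counted on these chromosomes, 53 Usp genes and 33 Klhl genes, of which 83 are protein-coding, 2 are long non-coding RNA genes and 1 is a pseudogene. They were chosen by symbol with their FLAG-Zscan4 regions already known, so the number with a region is given as a description and was not tested. The symbols do not map onto 1 function. Usp6nl encodes a GTPase-activating protein for Rab proteins, Usp46os1 and Usp46os2 are antisense RNA genes and Usp17le-ps is a pseudogene. At least these 4 of the 53 Usp symbols thus stand for no deubiquitinase.

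The study used J1, a mouse embryonic stem (ES) cell line of the strain labelled 12910la, cultured with LIF. Cells were transfected with 1000 ng of a pCMV-FLAG plasmid that carried the coding sequence of Zscan4c, placed in 500 ug/ml G418 after 24 h and kept there for 10 days before single clones were picked. How many clones stand behind a sample is not stated. Of the 12 samples, 7 came from overexpressing and 5 from wild-type cells, each in a group of its own. The list of regions analysed here came from the 1 anti-FLAG immunoprecipitation of the overexpressing cells. Its input, and the H3K27ac, H3K14ac and H3K4me1 samples, were not analysed here. There was no replicate, so no value below has a spread between samples, and sequencing depth was unknown. Absence from the list does not mean absence of binding, since the list holds only what passed the authors' threshold.

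Zscan4c is a zinc finger protein of the 2-cell embryo that also appears in short bursts in ES cells. Ubiquitin is attached to proteins by ligases and removed by deubiquitinases, and the ubiquitin-specific proteases encoded by Usp genes are the largest deubiquitinase family. Most Klhl proteins pair a BTB domain, which binds the scaffold Cul3, with Kelch repeats that hold the substrate, so they act as the adaptors of a cullin-RING ubiquitin ligase. The families thus work on opposite sides of the same modification.

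FLAG-Zscan4 regions lay at 24 of the 86 genes (27.9%, 95% Wilson interval 19.5 to 38.2%). A gene was counted when the midpoint of a region fell in its body or within 10 kb of it. By the same rule a region was listed at 9.23% of all genes of chromosomes 1 to 19 and at 12.2% of the protein-coding ones. The Wilson intervals cover counting error only and treat genes as independent, although 5 pairs of members have overlapping 10 kb windows. Because long genes offer more sequence, each member was set beside all genes in its class of span. Added up over the members, the shares of those classes came to 12.8 genes, so the count of 24 was 1.88 times that number. The 24 genes shared 29 distinct regions. A region inside the body was listed at 18 of the 86 members (20.9%), against 9.02 from genes of like span. The same was so for 4.65% of all genes and 8.01% of protein-coding genes.

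Both families lay above the number from genes of like span. Among Usp genes 14 of 53 had a region (26.4%, 16.4 to 39.6%) against 7.96, a ratio of 1.76. Among Klhl genes 10 of 33 had one (30.3%, 17.4 to 47.3%) against 4.83, a ratio of 2.07. The intervals of the families overlap widely, and the difference between them was not tested. Regions per gene were not tested either. No Usp gene had more than 1 region, while Klhl2 had 4 and Klhl3, Klhl18 and Klhl22 had 2 each. Over all protein-coding genes 2.08% had 2 or more and 0.17% had 4 or more. By class of span, 2 of 9 Klhl genes between 30 and 100 kb had 2 or more, against 2.46% of all genes, and 2 of 5 between 100 and 300 kb, against 7.33%. For Usp genes the counts in these classes were 0 of 25 and 0 of 8, so 0 is near the background there. Per Mb of gene body and flanks, Klhl genes held 6.1 regions and Usp genes 3.32, and the windows of all protein-coding genes held 2.23.

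**Figure D1:**
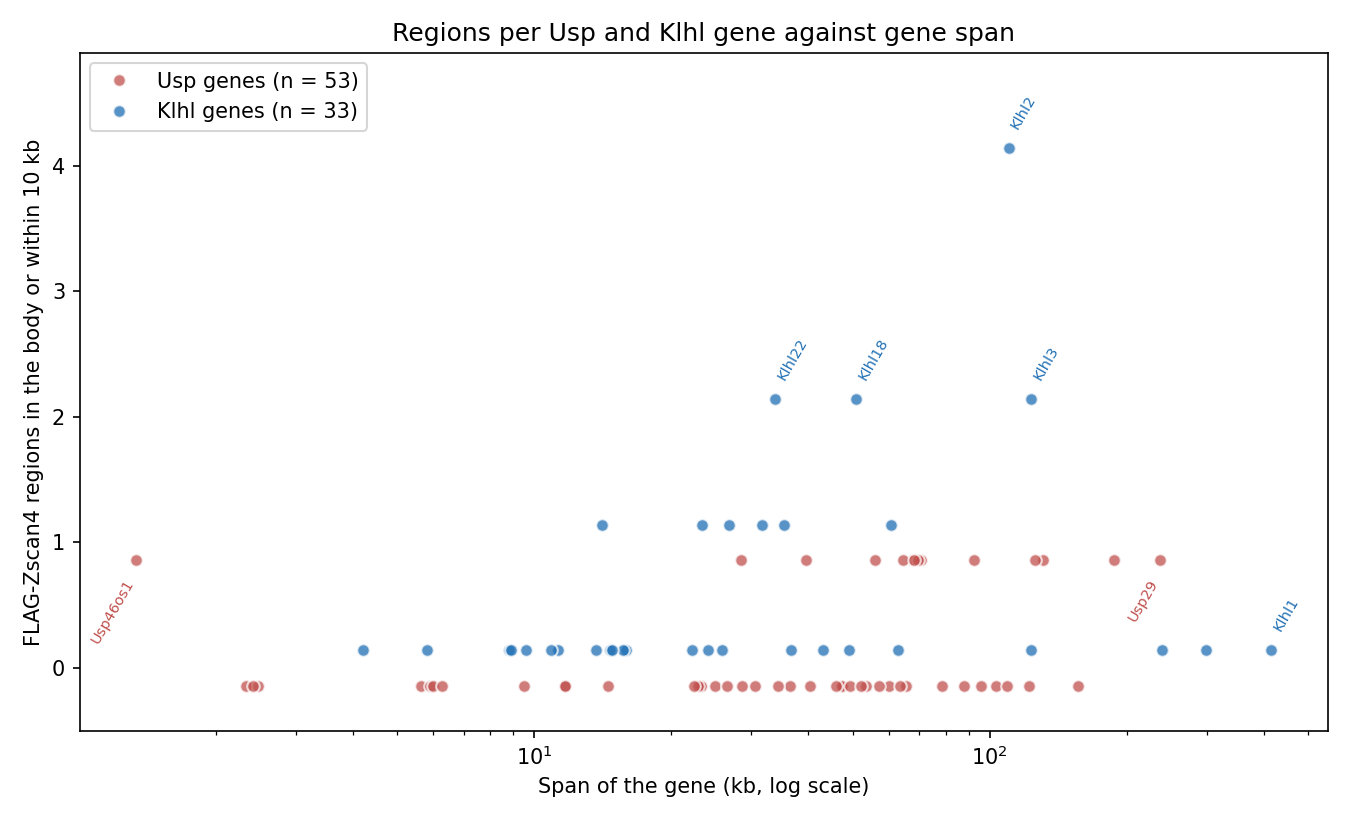
Number of FLAG-Zscan4 regions in the body or within 10 kb (vertical axis) against the span of the gene in kb (horizontal axis, log scale), 1 point per gene, with Usp points drawn slightly below and Klhl points slightly above each whole number. All 14 Usp genes with a region have 1. Klhl22, Klhl18 and Klhl3 have 2 and Klhl2 has 4, and the longest member, Klhl1, has none.

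Members with a region were longer than those without. Usp genes with a region had a median span of 69 kb, and those without one 34.3 kb. For Klhl genes the medians were 34.6 and 15.9 kb. Within classes of span, the families stood above all genes mainly in the middle of the range. Between 30 and 100 kb, 8 of 25 Usp genes (32%) and 5 of 9 Klhl genes (55.6%) had a region, against 16.6% of all genes. Between 10 and 30 kb, 3 of 13 Klhl genes (23.1%) and 1 of 11 Usp genes (9.09%) had one, against 8.85%. Between 100 and 300 kb, the counts were 4 of 8 Usp genes and 2 of 5 Klhl genes, against 29.4%. Under 10 kb, no Klhl gene of 5 had a region (5.4% of all genes), and the 1 Usp symbol of 9 was the antisense gene Usp46os1, which counted through the region inside its neighbour Usp46. Over 300 kb, where 44.2% of all genes had a region, the only member was Klhl1, which had none. With so few genes in each class, the Wilson intervals of the families are wide.

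**Figure D2:**
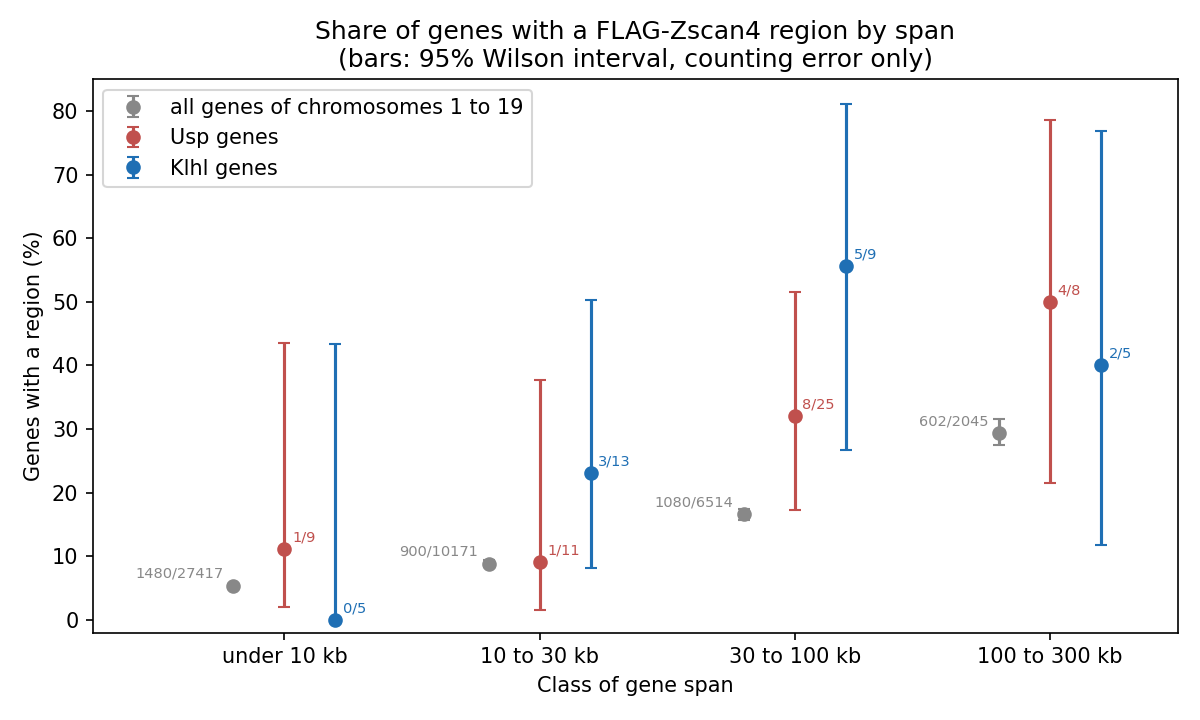
Share of genes with a FLAG-Zscan4 region (vertical axis, percent) in 4 classes of gene span (horizontal axis) for all genes of chromosomes 1 to 19 (grey), Usp genes (red) and Klhl genes (blue); bars are 95% Wilson intervals and the fractions give genes with a region over genes in the class. The share of all genes rises from 5.4% to 29.4%, and the Klhl share between 30 and 100 kb is 55.6%; Klhl1, the only member over 300 kb, is not drawn.

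Most regions at these genes scored below the median of all regions on chromosomes 1 to 19. The authors gave each region a score whose scale the labels and the file do not explain, and it was used only for ranking inside this list. The 29 regions had a median score of 26, against 32 for all 4759 regions on chromosomes 1 to 19 and 31 for those near protein-coding genes. Of the 29, 10 were at or above the median of 32 and 4 were at or above the upper quartile of 53. When only regions with a score at or above the median of the whole list were kept, 10 members had one against 6.54 from genes of like span. At or above the upper quartile of the whole list, 4 had one against 3.08, made up of 3 Klhl genes against 1.2 and 1 Usp gene against 1.89.

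**Figure D3:**
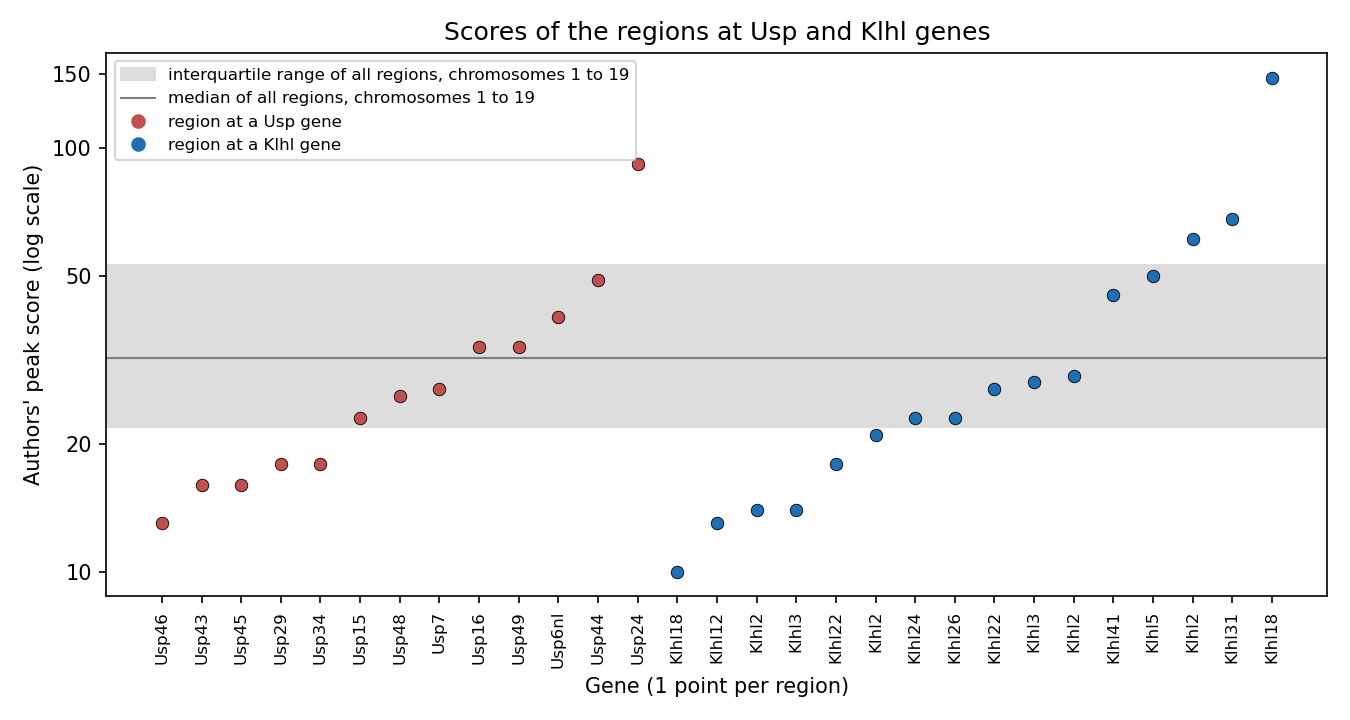
Authors' peak score (vertical axis, log scale) of each of the 29 regions at Usp (red) and Klhl (blue) genes, 1 point per region, ordered by score within a family; the region shared by Usp46 and Usp46os1 is drawn once. The grey band is the interquartile range of all regions on chromosomes 1 to 19 and the line their median of 32; the highest points are Klhl18 at 147 and Usp24 at 92.

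Among the Klhl adaptors, Klhl2 had the most regions. Klhl2, also known as Mayven, binds actin and is a Cul3 adaptor for WNK kinases. The gene spans 110 kb (chromosome 8, 64739673 to 64850169, minus strand) and held 3 regions in its body. These lay at 64834173 to 64834837 (score 61), 64824972 to 64825307 (score 14) and 64822181 to 64822433 (score 29). Their midpoints followed each other at 9.37 and 2.83 kb, between 14.2 and 25.2% of the way along the body. A further region lay 4.41 kb downstream of the gene (64735074 to 64735456, score 21). Of the 200 protein-coding genes nearest to Klhl2 in span, 53 had a region and 1 had 4 or more. Chromosome 8 as a whole was rich in regions, with one at 13% of all its genes, and its part in the count at Klhl2 was not tested. Klhl26, on the same chromosome, had 1 region of score 23 in its body (70473854 to 70474134), 2.95 kb from its nearest annotated start site.

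Klhl3, a close paralog of Klhl2, is the adaptor that targets WNK kinases in the distal nephron and is mutated in familial hyperkalaemic hypertension. It held 2 regions in its body on chromosome 13, at 58048076 to 58048315 (score 28) and at 58002298 to 58002624 (score 14), 45.7 kb apart. The second lay near the 3′ end, at 98.2% of the body. Klhl18, an adaptor linked to the activation of Aurora A at mitotic entry, held the region of highest score and greatest width among all members. It measured 1438 bp with a score of 147 (chromosome 9, 110443766 to 110445203), above 94.3% of the regions on chromosomes 1 to 19. The second region of Klhl18 (110438055 to 110438380), 6.27 kb away, had the lowest score of all members, 10. Klhl22, an adaptor for the mitotic kinase PLK1, had a region 5.39 kb upstream (chromosome 16, 17754102 to 17754368, score 27) and another in the body (17778316 to 17778570, score 18).

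The remaining Klhl genes had 1 region each. Klhl31, a gene of skeletal muscle, had one of score 68 in its body (chromosome 9, 77652714 to 77653107). Klhl41, which is needed for the integrity of muscle sarcomeres, had one of score 45, 1.31 kb downstream of its end (chromosome 2, 69685316 to 69685790). Of the 5 Klhl genes listed for muscle, these were the 2 with a region, against 0.408 from genes of like span. Klhl30, Klhl33 and Klhl40 had none in the body or within 10 kb. The muscle list was drawn up with earlier results of these data known and is no independent evidence. Klhl5 had a region of score 50 at 81.6% of its body (chromosome 5, 65156891 to 65157130). Klhl24, an adaptor that controls the turnover of keratin 14, had one of score 23 (chromosome 16, 20126530 to 20126820). Klhl12, which acts on Dishevelled and on the COPII coat protein Sec31, had one of score 13 (chromosome 1, 134485572 to 134485812).

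Of 12 Usp genes listed here for roles on chromatin or in DNA repair, 5 had a region, against 1.65 from genes of like span. The list is not a full census of such Usp genes, and the count depends on which were listed. This list was drawn up with earlier results of these data known and is no independent evidence. Usp16, a deubiquitinase of histone H2A that is known for a role in ES cell differentiation, had a region 8.33 kb upstream (chromosome 16, 87446465 to 87446849, score 34). Usp7, which stabilises Mdm2 and p53, had one 3.81 kb upstream of the annotated 5′ end (chromosome 16, 8760727 to 8761035, score 27). Usp48 had one 6.76 kb upstream (chromosome 4, 137587111 to 137587617, score 26). Usp49, a deubiquitinase of histone H2B, had one of score 34 in its body (chromosome 17, 47632435 to 47632675), where the predicted gene Gm20517 is annotated too. Usp44, which acts on histone H2B and in the mitotic checkpoint, had one of score 49 at 93841357 to 93841665 on chromosome 10. Usp1, Usp3, Usp21, Usp22, Usp28, Usp36 and Usp47 had no region in the body or within 10 kb.

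The other protein-coding Usp genes with a region spanned 67.6 to 237 kb. Usp24 (131 kb) had the highest score of the family, 92 (chromosome 4, 106422225 to 106422635), above 88.6% of regions. Usp29 (237 kb), an imprinted gene expressed from the paternal allele, had one of score 18 at 40.1% of its body (chromosome 7, 6825221 to 6825476). Usp34 (187 kb), which acts on axin in Wnt signalling, had one of score 18 at 51.4% of its body (chromosome 11, 23399420 to 23399701). Usp15, which acts on TGF-beta receptor and SMAD proteins, had one of score 23 (chromosome 10, 123134701 to 123135032). Usp46, known for the turnover of glutamate receptors, had one of score 13 (chromosome 5, 74013220 to 74013459). Its close relative Usp12 had none, the nearest lying 1150 kb away. Usp43 had one of score 16 (chromosome 11, 67860431 to 67860758), and Usp6nl one of score 40 (chromosome 2, 6327629 to 6327892). At Usp45 the region lay 9.84 kb downstream (chromosome 4, 21847601 to 21847832, score 16), inside the genes Pnisr and 4930528A17Rik.

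The 10 kb limit left few genes at its edge. Just inside it were Usp45 at 9.84 kb and Usp16 at 8.33 kb. Just outside, up to 20 kb, were Usp4 at 18 kb and Klhl29 at 19.2 kb. The longest members without a region were Klhl1 (414 kb, nearest region at 1788 kb), Klhl29 (298 kb), Klhl32 (239 kb), Usp32 (156 kb) and Klhl14 (123 kb). Klhl1 is expressed mainly in neurons. None of the 5 Usp17-like genes Usp17la to Usp17le, which are transcribed in the 2-cell programme that Zscan4 marks, had a region, against 0.27 from genes of like span, so 0 is near the background. Their nearest regions lay between 407 and 754 kb away. These genes are close copies of each other, and the labels do not say how reads matching several copies were placed.

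The place of the regions along the members was close to that at other genes. Start sites were taken from RefSeq promoter windows of build GRCm38.p6, which has the same primary chromosomes as mm10, each 250 bp before to 50 bp after a start. Such windows matched 66 of the 86 members, with 73 promoters. No region overlapped any of the 73, and over all 31396 promoters 0.137% were overlapped by one, so 0 is near the background. For the 26 regions whose gene had a start site in the table, the distance from the midpoint to the nearest start of that gene ran from 1.86 kb to 115 kb with a median of 26.7 kb, and 20 (76.9%) lay over 10 kb away. At all protein-coding genes with a region the median was 21.8 kb, and 68.5% lay over 10 kb away. Of 19 regions inside bodies of known strand, 2 lay in the first 10% of the body, 11 between 20 and 80% and 4 in the last 20%. These are shares of 10.5, 57.9 and 21.1%, against 8.46, 62.9 and 18.2% at all protein-coding genes.

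**Figure D4:**
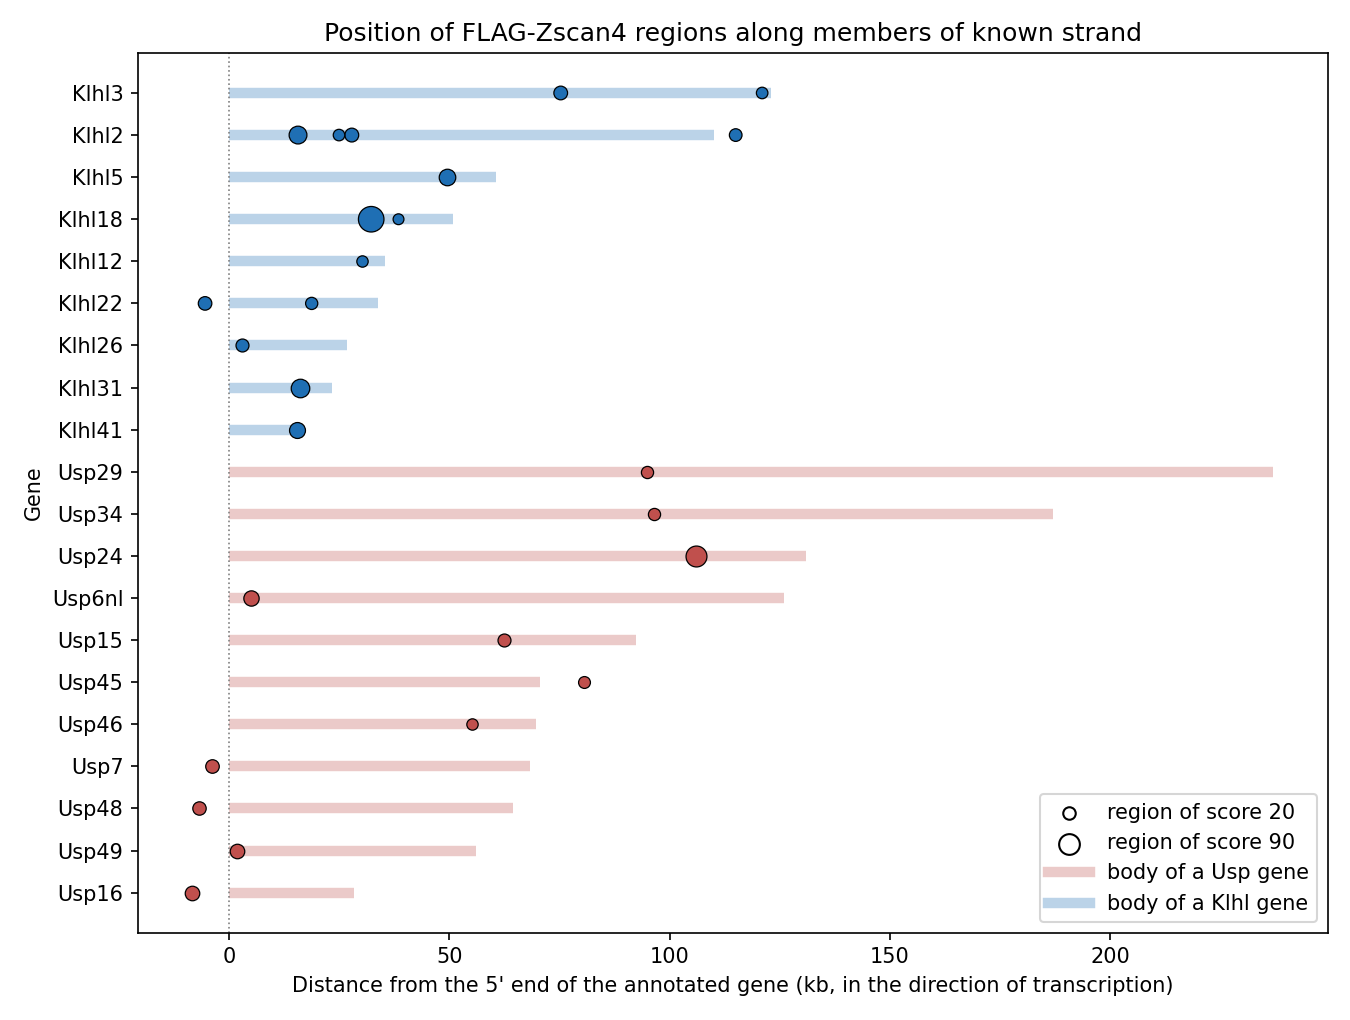
Position of FLAG-Zscan4 regions (circles, area growing with the authors' score) along the 20 members with a region and a known strand, as the distance in kb from the 5′ end of the annotated gene in the direction of transcription (horizontal axis), 1 line per gene (vertical axis), bodies drawn as bars. Most circles sit inside the bars and away from the dotted line at the 5′ end; those of Usp7, Usp16, Usp48 and 1 of Klhl22 lie upstream of it.

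The promoters with the nearest regions are shown to make the distance concrete: the region of Usp49 began downstream of its window, and that of Klhl26 lay further inside the gene. Capitals mark each CG dinucleotide, 11 in the Usp49 window and 25 in that of Klhl26. The windows are chr17:47630440-47630739 (plus strand) and chr8:70476894-70477193 (minus strand), in GRCm38.p6, each 300 bases, read 5′ to 3′.
Usp49: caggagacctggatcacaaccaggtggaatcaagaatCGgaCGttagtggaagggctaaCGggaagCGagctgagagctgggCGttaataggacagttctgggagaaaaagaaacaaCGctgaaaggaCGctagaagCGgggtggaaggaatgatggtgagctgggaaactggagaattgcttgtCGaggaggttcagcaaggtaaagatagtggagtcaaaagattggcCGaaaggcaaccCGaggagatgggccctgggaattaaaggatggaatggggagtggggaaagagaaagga
Klhl26: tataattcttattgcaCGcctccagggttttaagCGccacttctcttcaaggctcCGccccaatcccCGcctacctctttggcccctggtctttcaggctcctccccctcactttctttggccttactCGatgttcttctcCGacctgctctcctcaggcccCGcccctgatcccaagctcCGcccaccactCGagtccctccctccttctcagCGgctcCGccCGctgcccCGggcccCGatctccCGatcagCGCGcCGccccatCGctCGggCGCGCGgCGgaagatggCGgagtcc

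The promoters of the members were CpG-rich, with a median of 22 CG dinucleotides per window against 14 for protein-coding promoters and 7 for all. The 24 promoters of members with a region also had a median of 22. The windows were searched on both strands for TGCACAC (reverse complement GTGTGCA), a word found in catalogued motifs of ZSCAN4, and for the repeat TGTGTGTG (reverse complement CACACACA), which can overlap the reverse complement of the first. TGCACAC was in 2 of 73 member promoters (2.74%), those of Klhl41 and Usp19, and in 4.4% of all promoters. TGTGTGTG was in 3 of 73 (4.11%), those of Klhl11, Usp10 and Usp50, and in 4.14% of all. Protein-coding promoters held TGCACAC in 3.88% and TGTGTGTG in 3.57%. Among the 24 promoters of members with a region, TGCACAC was in 1 (4.17%), near the 4.4% of all promoters. TGTGTGTG was in 0 of these 24, against 4.14% of all promoters, so 0 is near the background. Klhl41 was thus the member with both TGCACAC and a listed region, and its promoter is printed for that reason, with TGCACAC's reverse complement in capitals. The window is chr2:69669870-69670169 (plus strand), and the region of Klhl41 lay 15.4 kb from this start. The match is a description and not a site.
Klhl41: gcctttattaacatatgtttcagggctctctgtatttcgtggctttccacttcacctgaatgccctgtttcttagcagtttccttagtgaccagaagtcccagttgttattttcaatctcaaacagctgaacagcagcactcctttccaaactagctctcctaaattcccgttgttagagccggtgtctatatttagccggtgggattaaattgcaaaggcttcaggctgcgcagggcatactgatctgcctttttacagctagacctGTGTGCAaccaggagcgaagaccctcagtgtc

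Ubiquitin genes outside both symbol series gave lower ratios to genes of like span. A list of 37 other genes was drawn from deubiquitinase families, and some of them, such as Cops5, encode no deubiquitinase. Of these 37 genes, 6 had a region, against 4.73 from genes of like span. They were Mindy2 (score 120), Cops5 (51), Atxn3 (42), Otulin (2 regions, highest score 35), Uchl3 (25) and Otud7a (23). Of 13 BTB-Kelch adaptors counted under other names, among them Keap1 and Enc1, none had a region against 1.13. Of 24 genes of the cullin-RING core, which includes the cullins, the NEDD8 conjugation enzymes and the exchange factors, Cand1 had one (score 13), against 3.07. Cul3, the scaffold that Klhl adaptors bind, had none. The differences between these lists and the Usp and Klhl genes were not tested. The Usp and Klhl genes were chosen with their regions already known, so a lower ratio elsewhere is no separate result.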

How the data were processed

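The measurement was 1 list of FLAG-Zscan4 regions from 1 immunoprecipitation of overexpressing J1 cells. Per the submitters' processing notes, cutadapt, Bowtie2, MACS2 and deepTools were used with build mm10. Their versions and thresholds, and the control used for calling, are not stated in the labels. The score was deposited by the authors as 1 whole number per region, on a scale that neither the labels nor the file explain. The authors deposited start and end as bp positions. The start, deposited as counted from 0, was raised by 1 for printing, and the end was printed as deposited. The list gives no read counts, so depth was unknown and no detection limit could be given.

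Genes came from the RefSeq table of GRCm38.p6 for chromosomes 1 to 19, without those that start below 3 Mb. A region counted for a gene when its midpoint lay in the body or within 10 kb. The number from genes of like span is the sum, over members, of the share of genes with a region in 5 classes of span, with limits at 10, 30, 100 and 300 kb; members stay in these classes. Counts were made in Python 3.11.15 with pandas 2.3.3, and the counting was tested on simulated regions; statsmodels 0.14.6 gave the 95% Wilson intervals. Nothing was tested for significance: there is 1 sample, and the members and lists were chosen with earlier results of these data known. Every member with a region is named, as are those with one 10 to 20 kb away, the 5 longest without one, and the members of the other ubiquitin lists with one. Comparisons by other features (Klhl2 against genes of like span, positions along genes, the CG counts and the motifs) were chosen after the data were seen. Skp1a of the cullin-RING list was not matched in the gene table. A further gene of the BTB-Kelch list as first drawn up was left out of its count and is not reported here.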

Additional observations from a re-analysis of the deposited data

How the results depend on the processing

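The count of 24 members stayed within 1.5 times under 7 other settings: 18 with the gene body only, 21 with a 5 kb flank, 32 with a 50 kb flank, 24 with any overlap or with regions merged within 1 kb, 23 of 83 with protein-coding members and 21 of 75 without chromosomes 1 and 8. Against genes of like span the ratio was 1.99 in the body, 1.27 with 50 kb and 2.01 without chromosomes 1 and 8, where Klhl genes alone gave 7 of 27 against 3.72. The count moved by more than 1.5 times with the score. With scores at or above the median the counts were 10 members, 5 Usp and 5 Klhl genes, against 6.54 members from genes of like span. At or above the upper quartile they were 4, 1 and 3, against 3.08 members. The ratios at these limits were 1.53 and 1.3 for all members, 1.24 and 0.53 for Usp and 1.99 and 2.51 for Klhl genes. With the gene body only, 9 Usp genes had one against 5.63. The number from genes of like span was 12.8, and 10.4 for the 75 members without chromosomes 1 and 8, 13.3 from protein-coding genes and 13.1 from the 200 genes nearest in span. Without Usp6nl, the antisense genes and the pseudogene, 22 of 82 members and 12 of 49 Usp genes had a region. Genes of like span gave 12.3 and 7.5, for ratios of 1.78 and 1.6. This alternative was added after the data were seen. Depth and replicate error could not be examined.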

Other observations

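The symbol series also has 10 genes on the sex chromosomes, 6 Usp and 4 Klhl, which the counts above leave out. None had a region within 10 kb. The share over all genes of the sex chromosomes was not counted, so this absence cannot be read as a trait of these genes. The nearest were at Usp9y (104 kb), the Y-linked relative of Usp9x, and at Klhl4 (207 kb), and Usp9x itself lay 1398 kb from one.

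Members with a region were spread over 12 chromosomes. On chromosome 16, 4 of 6 members had one (Klhl22, Klhl24, Usp7 and Usp16), against 1.05 from genes of like span, while 9.75% of all genes of that chromosome had one. On chromosome 10 both members, Usp15 and Usp44, had one, against 0.332 from genes of like span and 8.94% of all its genes. On chromosome 7, which carries the Usp17-like genes, 1 of 12 (8.33%) had one, Usp29, against 1.22 from genes of like span and 6.94% of all its genes. Chromosomes 3, 6, 12, 14, 15 and 18 hold 1 to 4 members each and none had one, against 0.054 to 0.662 from genes of like span, so these counts are near the background.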
